A study of Homo sapiens with 30 samples.

Results

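The family of ID genes, ID1, ID2, ID3 and ID4, was followed in 5 breast cancer cell lines treated with BMP7. Its members were the 5 probes that carry one of these 4 gene names in the array files and 2 probes without a gene name at the ID1 and ID3 loci, 7 of 41000 probes in all, and for 4 of 17372 gene symbols that could be matched. The lines were HCC1954, MDA-MB-231, MDA-MB-361, T-47D and ZR-75-30, all established human breast cancer lines. Each was treated with recombinant human BMP7 or with vehicle for 30 min or for 1, 3, 6, 12 or 24 h, and each array compared the vehicle-treated cells (Cy3) with the BMP7-treated cells (Cy5) of one line at one time point. Cells of 3 cultures were pooled for each RNA, so a line at a time point has 1 array and no replicate. Per the study's methods, MDA-MB-231 and T-47D were kept in less serum than recommended, and serum and cell line cannot be told apart for these lines. The dyes were never swapped, and a probe's own dye effect, if constant, stays in each ratio but cancels when times are compared.

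BMP ligands bind type I and type II serine/threonine kinase receptors, which phosphorylate SMAD1, SMAD5 and SMAD9. These join SMAD4 in the nucleus, and the ID genes are among their best known direct targets. ID proteins have a helix-loop-helix domain but no basic region that binds DNA. They pair with E proteins such as TCF3, TCF4 and TCF12, which then cannot bind DNA with their tissue-specific partners, and they are known for holding back differentiation and for promoting proliferation.

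The promoters of the 4 genes are shown because all 4 belong to one family of known BMP targets. Each sequence holds the 250 bases before the start of the gene in the RefSeq table (GRCh38.p14), 5′ to 3′ on the gene's strand, and capitals mark GTCTG or its reverse complement CAGAC, the short SMAD binding element. They lie at chr20:31605039-31605288 (ID1, plus strand), chr2:8681806-8682055 (ID2, plus strand), chr1:23559502-23559751 (ID3, minus strand) and chr6:19837120-19837369 (ID4, plus strand).

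ID1: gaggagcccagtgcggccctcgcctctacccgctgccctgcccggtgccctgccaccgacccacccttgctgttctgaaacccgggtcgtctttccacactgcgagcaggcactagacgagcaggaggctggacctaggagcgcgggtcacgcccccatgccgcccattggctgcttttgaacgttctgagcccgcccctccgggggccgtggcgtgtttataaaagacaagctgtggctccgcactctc

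ID2: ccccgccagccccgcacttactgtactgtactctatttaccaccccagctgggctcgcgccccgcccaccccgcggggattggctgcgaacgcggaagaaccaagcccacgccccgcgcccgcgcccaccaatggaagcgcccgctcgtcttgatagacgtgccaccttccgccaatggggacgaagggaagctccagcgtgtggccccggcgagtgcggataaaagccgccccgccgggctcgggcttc

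ID3: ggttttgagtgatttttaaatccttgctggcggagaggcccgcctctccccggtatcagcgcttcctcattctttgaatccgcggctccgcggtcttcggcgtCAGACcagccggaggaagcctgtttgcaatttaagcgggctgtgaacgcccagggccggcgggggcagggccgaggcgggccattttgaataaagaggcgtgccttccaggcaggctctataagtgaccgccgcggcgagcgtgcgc

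ID4: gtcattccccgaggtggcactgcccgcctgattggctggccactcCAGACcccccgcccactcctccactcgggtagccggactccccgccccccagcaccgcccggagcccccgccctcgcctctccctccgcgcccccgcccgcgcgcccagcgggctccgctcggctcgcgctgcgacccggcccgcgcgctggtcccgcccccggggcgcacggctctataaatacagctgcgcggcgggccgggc

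The element was found once in ID3, as CAGAC beginning at position -147 from the start, and once in ID4, as CAGAC beginning at -205, and in neither ID1 nor ID2. Of 35116 RefSeq promoters of this length, 38% held it on either strand. The GC-rich SMAD element GGCGCC, which reads the same on both strands and can share only an end base with the first, was in none of the 4 and in 16.4% of all promoters. These are letter matches in a short window and say nothing about the binding of SMADs to these genes.

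Among the ID genes, ID1 was represented by a named probe at chr20:29657819-29657878 of hg18 and by the unnamed probe at chr20:29657031-29657090. ID2 was represented by a named probe at chr2:8740093-8740481, called here the upstream probe, and another named probe at chr2:8741733-8741792, called the downstream probe. The study's supplementary gene list gives the downstream probe the name PTPRG, whereas the array files name it ID2 and place it at the ID2 locus, and it is described here as the files name it. ID3 was represented by a named probe at chr1:23758253-23758312 and the unnamed probe at chr1:23757351-23757410. ID4 had a single probe, at chr6:19947489-19947548. Both unnamed probes are written in the files with coordinates that run opposite to those of the named probe of the same gene. Which strand they detect was not tested, so their values are given apart from those of the named probes. The files do not place the probes in exons or introns, and their positions were not compared with the newer build.

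All 7 probes had 1 spot, 0 saturated spots and 0 outlier marks on the 30 arrays. Both channels were well above background, as called by the scanner software, on 30 of 30 arrays for the named ID1, upstream ID2 and named ID3 probes, on 29 for the unnamed ID1 and downstream ID2 probes, and on 25 for the unnamed ID3 probe. The ID4 probe was well above background on 24 arrays, all but the 6 of MDA-MB-231.

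Over all probes, 53.8% to 68.3% were well above background in both channels of an array, and the number of arrays limits the precision. The vehicle profile of each of the 30 arrays correlated best with an array of its own line. The arrays of MDA-MB-231 at 6 h, T-47D at 3 h and T-47D at 24 h stood apart, with a mean Pearson correlation of 0.937 to 0.954 with their own line against 0.966 to 0.993 for the others. There were 13 slides and 2 scan batches, the second batch with 6 arrays, among them 3 of the 5 taken at 30 min (HCC1954, MDA-MB-231 and ZR-75-30). As for the labeled cell types, the epithelial keratin genes KRT8, KRT18 and KRT19, EPCAM and CDH1 were well above background in the vehicle channel of all 30 arrays, and the leukocyte marker PTPRC on none. VIM was highest in MDA-MB-231 (mean vehicle level of 16.85 on the log2 scale) and lowest in MDA-MB-361 (4.90). Read from its brightest probe, ESR1 was highest in MDA-MB-361 (11.04) and below background in MDA-MB-231, and ERBB2 was highest in HCC1954 (17.32). The endothelial marker PECAM1 was called so on 6 of 6 arrays of HCC1954 and 3 of 6 of MDA-MB-231.

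After BMP7 treatment the ratio of BMP7 over vehicle rose for probes of ID1, ID2 and ID3. In RNA from whole cultures, more cells that express a gene and more of its RNA per cell cannot be told apart. From 30 min to the mean of 3 to 24 h, the unnamed ID1 probe rose by 1.42 on the log2 scale, the unnamed ID3 probe by 1.28 and the downstream ID2 probe by 1.14 (limma, standard errors 0.18, 0.18 and 0.14, adjusted p = 0.0022, 0.00752 and 0.0022, over 5 lines). The named ID3 probe had a change of 0.92, the named ID1 probe of 1.05 and the upstream ID2 probe of 0.70 (limma, adjusted p = 0.0547, 0.0699 and 0.0699), which did not pass the threshold of 0.05. The ID4 probe had a change of 0.37 (limma, adjusted p = 0.359). Thus 3 of 7 ID probes rose, against 7 of all 41000 probes, or 0.0171%. The other 4 carried the names FGFR3, DNAJB12, DMAP1 and DAPK3 and had smaller changes, of 0.35 to 0.48. By the moderated t statistic the ID2 downstream, unnamed ID1 and unnamed ID3 probes ranked 1, 2 and 3 of 41000, the named ID3 probe 10, the named ID1 probe 48, the upstream ID2 probe 56 and the ID4 probe 4945.

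These calls depend on single lines and on the scan batch. Without ZR-75-30 none of the ID probes passed, without T-47D 5 did, without MDA-MB-231 4 did, and the count was 2 without HCC1954, where the downstream ID2 probe was lost, or MDA-MB-361, where the unnamed ID3 probe was lost. It was 0 of 7 with scan batch as a further term, where the called probes had changes of 1.27, 1.31 and 1.00 (limma, adjusted p = 0.0591 each, for the unnamed ID1, unnamed ID3 and downstream ID2 probes), and 0 in the first scan batch alone, where they had 1.24, 1.16 and 0.87 and only 2 arrays at 30 min were left. Without the 3 arrays that stood apart the count was 6.

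**Figure D1:**
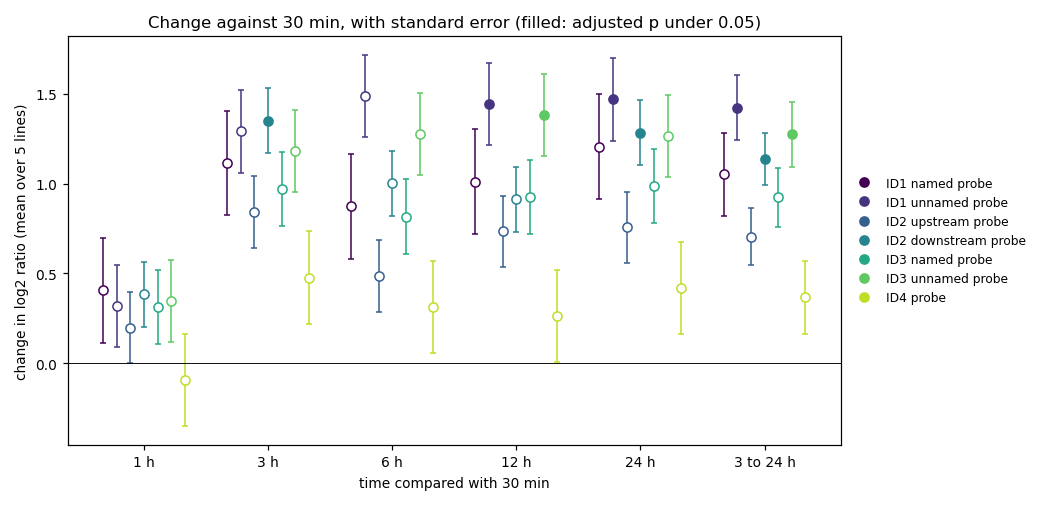
Change in the log2 ratio of each ID probe from 30 min to each later time and to the mean of 3 to 24 h (vertical axis, mean over 5 cell lines), with the standard error as bars; filled points have an adjusted p under 0.05 in limma. At 3 to 24 h the filled points are the unnamed ID1 (1.42), downstream ID2 (1.14) and unnamed ID3 (1.28) probes, and the ID4 probe is lowest at every time.

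At 30 min the ratios lay near 0. The mean over the 5 lines ranged from -0.27 for the unnamed ID1 probe to 0.12 for the upstream ID2 probe, and 0 of 7 probes differed from 0 (limma, 1 at an unadjusted p under 0.05, the downstream ID2 probe with a mean of 0.08, and 4983 of all 41000 probes, against 0 of all probes, or 0%, after adjustment). Both unnamed probes were uneven at this time, with 0.23 in MDA-MB-361 and -0.65 in HCC1954 for ID1, and 0.15 in MDA-MB-361 and -0.74 in T-47D for ID3. The ID4 probe was uneven as well, with 0.46 in HCC1954 and -0.66 in MDA-MB-361, and the named ID1 probe had 0.29 in ZR-75-30 and -0.35 in MDA-MB-361. Part of the rise of the unnamed probes from 30 min is thus measured from ratios below 0 in some lines. The same holds for the ID4 and the named ID1 probe in MDA-MB-361.

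At 1 h the change from 30 min was between -0.09 (ID4) and 0.41 (named ID1), and 0 of 7 probes passed, as did 0 of all probes, or 0% (limma, 1 of 7 at an unadjusted p under 0.05 and 1171 of 41000). At 3 h the changes of the ID1, ID2 and ID3 probes were between 0.84 and 1.35. The downstream ID2 probe rose by 1.35 (limma, standard error 0.18, adjusted p = 0.0102) and was the only one of 41000 probes that passed at 3 h (0.00244%). It was lost without HCC1954, MDA-MB-361 or ZR-75-30. At 6 h 0 of 7 and 0% of all probes rose past the threshold (limma, 6 of 7 and 5970 of 41000 at an unadjusted p under 0.05), and the unnamed ID1 probe came closest, with 1.49 (limma, adjusted p = 0.0563). Without MDA-MB-231, 1 of 7 passed at 6 h. At 12 h both unnamed probes rose, by 1.44 (ID1) and 1.38 (ID3) (limma, adjusted p = 0.0408 and 0.0416), 2 of 7 against 0.0537% of all probes. At 24 h the unnamed ID1 probe rose by 1.47 and the downstream ID2 probe by 1.28 (limma, adjusted p = 0.0476 and 0.0222), and no other probe did (0.00488%). At 12 h and at 24 h no ID probe passed when HCC1954, MDA-MB-361 or ZR-75-30 was left out. At 3, 12 and 24 h 0 of 7 passed when cell line was a random block, as when a term for scan batch was added. The count at 12 h was 0 without MDA-MB-231 and 4 without T-47D, and at 24 h it was 1 without either of these.

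Later time points were compared with the middle ones to see whether the response lasted. From 3 and 6 h to 12 and 24 h the ID probes had changes of -0.08 to 0.11 with standard errors of 0.13 to 0.21, and 0 of 7 probes and 0% of all probes changed (limma, 0 of 7 and 3148 of 41000 at an unadjusted p under 0.05). These intervals do not show that the ratios were equal.

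**Figure D2:**
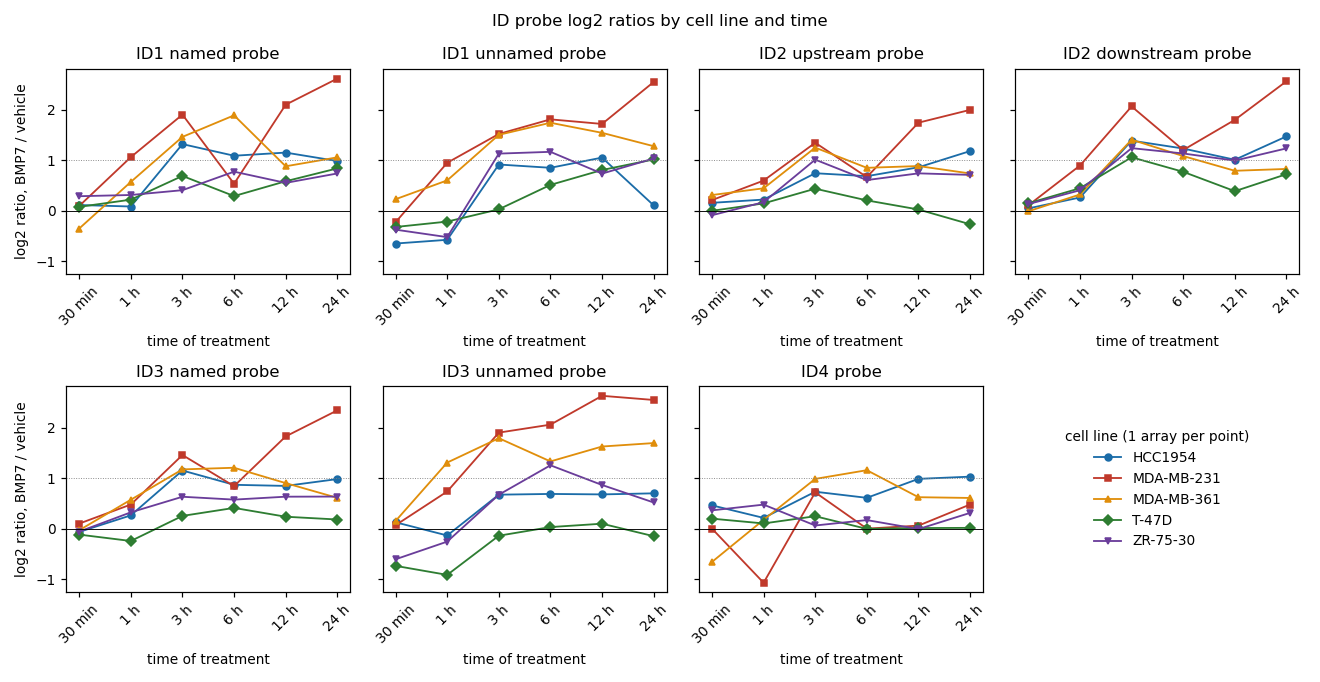
Log2 ratio of BMP7 over vehicle (vertical axis) for each ID probe in the 5 cell lines at 6 time points, 1 array per point; the solid line marks 0 and the dotted line a 2-fold rise. MDA-MB-231 reaches the highest ratios of ID1, ID2 and ID3, up to 2.63 (unnamed ID3 at 12 h, where the vehicle spot was not well above background), and T-47D stays lowest in most panels.

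ID1, the family member most often used as a readout of BMP signaling, had named-probe log2 ratios in MDA-MB-231 of 0.09, 1.06, 1.91, 0.54, 2.10 and 2.62 for the 6 times from 30 min to 24 h. In MDA-MB-361 they were -0.35, 0.57, 1.47, 1.89, 0.88 and 1.06 in the same order, and in HCC1954 0.11, 0.08, 1.32, 1.09, 1.15 and 0.99. In T-47D the ratios were 0.08, 0.22, 0.69, 0.29, 0.58 and 0.84, and in ZR-75-30 0.29, 0.31, 0.41, 0.77, 0.55 and 0.74. Neither of these lines reached 2-fold on any array. In each line every ratio from 3 h on was above the one at 30 min. The low value of MDA-MB-231 at 6 h comes from an array that stood apart, and the unnamed ID1 probe, which read 1.81 there, had a vehicle spot not well above background on that array.

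The unnamed ID1 probe gave -0.23, 0.95, 1.52, 1.81, 1.72 and 2.55 in MDA-MB-231 and 0.23, 0.60, 1.51, 1.75, 1.55 and 1.28 in MDA-MB-361. In HCC1954 it gave -0.65, -0.58, 0.92, 0.85, 1.05 and 0.11, in ZR-75-30 -0.38, -0.52, 1.13, 1.17, 0.74 and 1.04, and in T-47D -0.32, -0.22, 0.03, 0.51, 0.81 and 1.02. All 5 lines were higher on each array from 3 h than at 30 min. The ID1 probes correlated at r = 0.788 over the 30 arrays, which share lines and times, and the unnamed one was higher on 13 of 30 arrays (mean difference -0.08, SD 0.51).

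ID2, which besides its role against E proteins can bind the retinoblastoma protein, was the only gene with 2 named probes. The downstream probe had a narrow spread at 30 min, with ratios from -0.01 to 0.15 over the 5 lines, and at 3 h all 5 lines were above 2-fold, with 2.07 for MDA-MB-231, 1.41 for MDA-MB-361, 1.39 in HCC1954, 1.24 in ZR-75-30 and 1.06 in T-47D. It was at least 0.39 on each of the 20 arrays from 3 h on, so these ratios did not overlap with those at 30 min. At 24 h it had 2.57, 0.83, 1.47, 1.24 and 0.73 in the same order of lines.

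The upstream ID2 probe was lower, with 3 h ratios of 1.35 for MDA-MB-231, 1.25 for MDA-MB-361, 0.74 in HCC1954, 1.01 in ZR-75-30 and 0.44 in T-47D. By 24 h it read 2.0, 0.74, 1.18, 0.71 and -0.27. The downstream probe was higher on 25 of 30 arrays (mean difference 0.29, SD 0.30, r = 0.879), and the widest gap, of 0.99, was on the T-47D array at 24 h, another that stood apart. On that array the downstream probe had a ratio of 0.73 and the upstream one a ratio below 0, so the direction for ID2 in T-47D at 24 h depends on the probe.

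ID3, a further E protein antagonist with known roles in lymphocytes, had named-probe ratios at 30 min from -0.12 to 0.10. At 3 h they were 1.46 for MDA-MB-231, 1.18 for MDA-MB-361, 1.15 in HCC1954, 0.63 in ZR-75-30 and 0.25 in T-47D. At 24 h they were 2.35, 0.61, 0.98, 0.64 and 0.18. ZR-75-30 stayed between 0.58 and 0.64 from 3 h on, and T-47D between 0.18 and 0.41.

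The unnamed ID3 probe was highest in MDA-MB-231, with 1.90, 2.06, 2.63 and 2.55 from 3 to 24 h, but the vehicle spot was not well above background in that line at 6, 12 and 24 h, so these 3 ratios depend on how the software handled the background. In MDA-MB-361 it read 1.31 already at 1 h. In T-47D it had -0.74, -0.92, -0.14, 0.03, 0.10 and -0.15 from 30 min to 24 h, so no ratio was above 0.10 although the values from 3 h were above those of the first hour. The ID3 probes correlated at r = 0.867 (mean difference 0.07, SD 0.52).

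ID4, which is expressed in fewer tissues than the other members, reached 2-fold on 1 array each of HCC1954 and MDA-MB-361. In HCC1954 its ratios were 0.46, 0.21, 0.73, 0.61, 0.99 and 1.03 from 30 min to 24 h, and in MDA-MB-361 -0.66, 0.17, 0.99, 1.16, 0.62 and 0.61. In T-47D they were 0.20, 0.10, 0.25, -0.01, 0.01 and 0.02, and in ZR-75-30 0.36, 0.48, 0.06, 0.17, -0.01 and 0.31. In T-47D the ratios from 3 h on overlapped those of the first hour, and in ZR-75-30 all 4 lay below both values of the first hour. MDA-MB-231 has no usable ratio, since the probe was not well above background on any of its arrays, and with those values included the direction of the mean change turned with the scaling, to -0.24 with normexp background correction and median scaling.

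Counted on single arrays, a rise of at least 2-fold was seen 14 times for the downstream and 6 times for the upstream ID2 probe, 13 times for the unnamed and 10 times for the named ID1 probe, 10 times for the unnamed and 6 times for the named ID3 probe and 2 times for ID4. Over all probes and arrays 0.908% of values were up and 0.957% down by 2-fold, and among the ID probes the only fall of 2-fold was an ID4 value of MDA-MB-231 below background. By the p-value that the scanner software gives each ratio from its spot error model, the ID1, ID2 and ID3 probes were up at a p under 0.01 in 0 of 30 values at 30 min and 9 of 30 at 1 h, and then in 25, 23, 26 and 25 of 30 from 3 to 24 h, against 1.63% of all values. All 9 values at 1 h were of MDA-MB-231 or MDA-MB-361, as were both 2-fold rises at that time. This p covers the error within an array and not that between cultures.

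The lines differed in how far they moved. Over 3 to 24 h the named ID1 probe had a mean log2 ratio of 1.79 in MDA-MB-231 (SD 0.89, n = 4 arrays), 1.32 in MDA-MB-361 (SD 0.45, n = 4), 1.14 in HCC1954 (SD 0.14, n = 4), 0.62 in ZR-75-30 (SD 0.17, n = 4) and 0.60 in T-47D (SD 0.23, n = 4). For the downstream ID2 probe the means were 1.91 in MDA-MB-231, 1.28 in HCC1954, 1.15 in ZR-75-30, 1.03 in MDA-MB-361 and 0.74 in T-47D, with SDs of 0.12 to 0.57. For the named ID3 probe they were 1.62 for MDA-MB-231, 0.97 for MDA-MB-361, 0.96 in HCC1954, 0.62 in ZR-75-30 and 0.27 in T-47D, with SDs of 0.03 to 0.63. For each of the 6 probes of ID1, ID2 and ID3, MDA-MB-231 had the highest mean and T-47D the lowest.

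Neighbors in this order often did not differ beyond their spread. The ranges of MDA-MB-231 and the next line overlapped for 5 of the 6 probes. For the named ID1, both ID2 and the named ID3 probes, this rested on the MDA-MB-231 array at 6 h, which stood apart. The other arrays of this line from 3 h on lay above the highest ratio of the next line for these probes. The unnamed ID3 probe was the exception, with the lowest ratio of MDA-MB-231 (1.90) above the highest of MDA-MB-361 (1.79). Its vehicle spot was not well above background on 3 of the 4 arrays of MDA-MB-231. T-47D lay below the next line without overlap for the upstream ID2 and both ID3 probes.

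In an F test over the 20 arrays from 3 h on with time as a term, the ratio differed between lines for 6 of 7 ID probes, against 5.37% of all probes. The highest and lowest lines differed by 2.33 for the unnamed ID3 probe, 1.35 for the named ID3, 1.34 for the upstream ID2, 1.31 for the unnamed ID1, 1.17 for the downstream ID2 and 0.78 for the ID4 probe (limma, adjusted p = 0.000353, 0.0336, 0.0333, 0.0365, 0.025 and 0.0226). The difference for the unnamed ID3 probe was 1.97 on spots well above background in both channels (limma, adjusted p = 0.000695) and 1.09 with normexp background correction and loess. The ID4 test includes the MDA-MB-231 ratios, although that probe was not well above background on any array of this line. The named ID1 probe differed by 1.19, which did not pass (limma, adjusted p = 0.128). Since each array of a line is another time point of pooled cultures, these p-values say nothing about repeats of a line. Their error is the spread between arrays that the line and time terms leave over. When HCC1954, MDA-MB-361, T-47D or ZR-75-30 was left out, 1 of 7 probes passed, in each case the unnamed ID3 probe, and without MDA-MB-231 the count was 5.

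**Figure D3:**
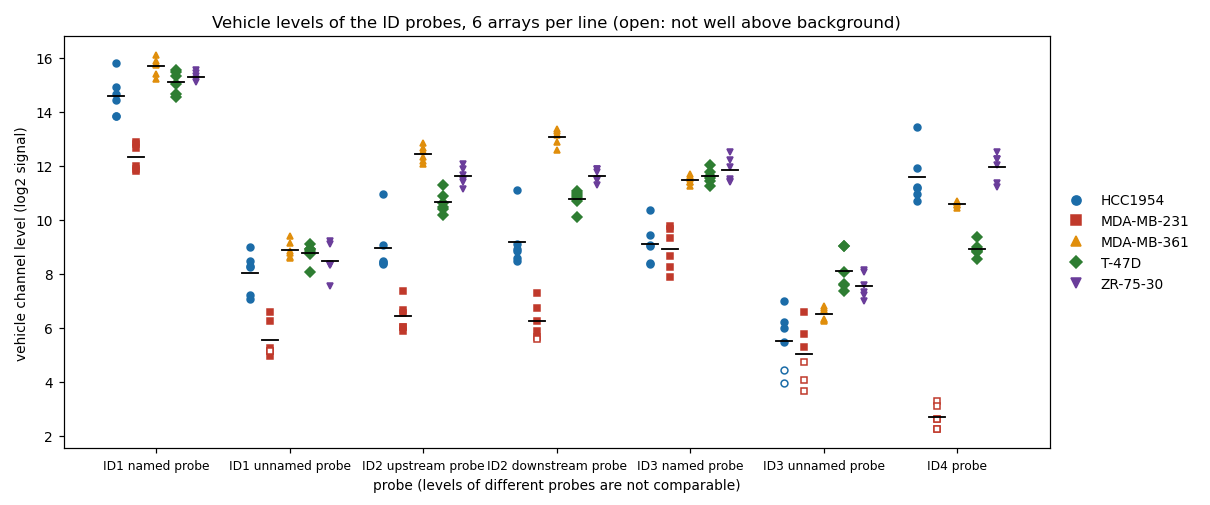
Vehicle channel level (vertical axis, log2 signal after quantile scaling between arrays) of each ID probe in the 6 arrays of each cell line; bars mark means and open symbols values not well above background. MDA-MB-231 has the lowest mean for all 7 probes, and for ID4 all 6 of its values, with a mean of 2.68, are open.

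The level of the ID genes in vehicle-treated cells also differed between the lines. Levels are compared within a probe only. For the named ID1 probe the vehicle level was 15.68 in MDA-MB-361 (SD 0.32, n = 6 arrays), 15.30 in ZR-75-30 (SD 0.16, n = 6), 15.09 in T-47D (SD 0.43, n = 6), 14.58 in HCC1954 (SD 0.74, n = 6) and 12.34 in MDA-MB-231 (SD 0.50, n = 6). The 4 upper lines overlapped with their neighbors, and the highest array of MDA-MB-231, at 12.90, was below the lowest of HCC1954, at 13.84. The downstream ID2 probe spanned more, with 13.07 in MDA-MB-361, 11.64 in ZR-75-30, 10.76 in T-47D, 9.16 in HCC1954 and 6.23 in MDA-MB-231. T-47D and HCC1954 were the only neighbors that overlapped for this probe. That overlap came from the HCC1954 array at 1 h alone, at 11.10. The highest other array of HCC1954 read 9.08 and the lowest of T-47D 10.08. For the named ID3 probe ZR-75-30 (11.83), T-47D (11.61) and MDA-MB-361 (11.48) overlapped in turn, as did HCC1954 (9.10) and MDA-MB-231 (8.92), with a gap between the groups. ID4 was brightest in ZR-75-30 (11.94) and HCC1954 (11.56), followed by MDA-MB-361 (10.57) and T-47D (8.90). In MDA-MB-231 it was not well above background. A floor was taken on each array of this line, the higher of the dimmest probe well above background and the ID4 value itself. Against the mean floor of 4.32, the ID4 level was 24.0-fold higher in T-47D, 76.3-fold in MDA-MB-361, 152-fold in HCC1954 and 196-fold in ZR-75-30. This floor is not a strict limit. The downstream ID2 probe read 5.57 in MDA-MB-231 at 6 h and was not well above background either.

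All 7 probes differed between lines in the vehicle channel (limma, F test, adjusted p from 6.27e-19 for ID4 to 7.22e-06 for the unnamed ID3 probe), as did 73.2% of all probes, the share this count is to be read against. MDA-MB-231 was thus the line with the lowest mean vehicle level of every ID probe and the highest ratio of the 6 ID1, ID2 and ID3 probes. For the named ID3 probe the lowest mean rested on the HCC1954 array at 1 h. The other 5 arrays of HCC1954 had a mean of 8.85, against 8.92 in MDA-MB-231. At 30 min this probe read 9.78 in MDA-MB-231 and 9.05 in HCC1954. The vehicle level is also the denominator of the ratio, so level and ratio are not separate measures. With 5 lines no correlation between level and ratio was computed.

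On the array of HCC1954 at 1 h, 6 of the 7 ID probes had a higher vehicle level than on any other array of that line, the unnamed ID3 probe being the exception. For the upstream ID2 probe it read 10.96 against a mean of 8.55 in the other 5 (SD 0.28), 5.32-fold higher, and the downstream probe read 5.03-fold higher. ID4 was 4.77-fold, the named ID3 probe 2.83-fold and the named ID1 probe 2.77-fold higher there. The unnamed ID1 probe read 2.22-fold higher, and the unnamed ID3 probe read 5.98, below the highest of the other arrays at 7.0. The BMP7 channel of that array was 3.75-fold higher for the upstream ID2 and 3.25-fold for the ID4 probe, but 1.09-fold for the unnamed ID1 probe and 0.909-fold for the unnamed ID3 probe relative to the other arrays, and the ratios at 1 h stayed between 0.08 and 0.26 for the named probes of the 4 genes. Of 23958 probes well above background on at least 20 arrays, 0.138% had a vehicle level on this array that was as far above the rest of the line as that of the upstream ID2 probe, and 8.26% one as far above as that of the unnamed ID3 probe, with the other ID probes in between.

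**Figure D4:**
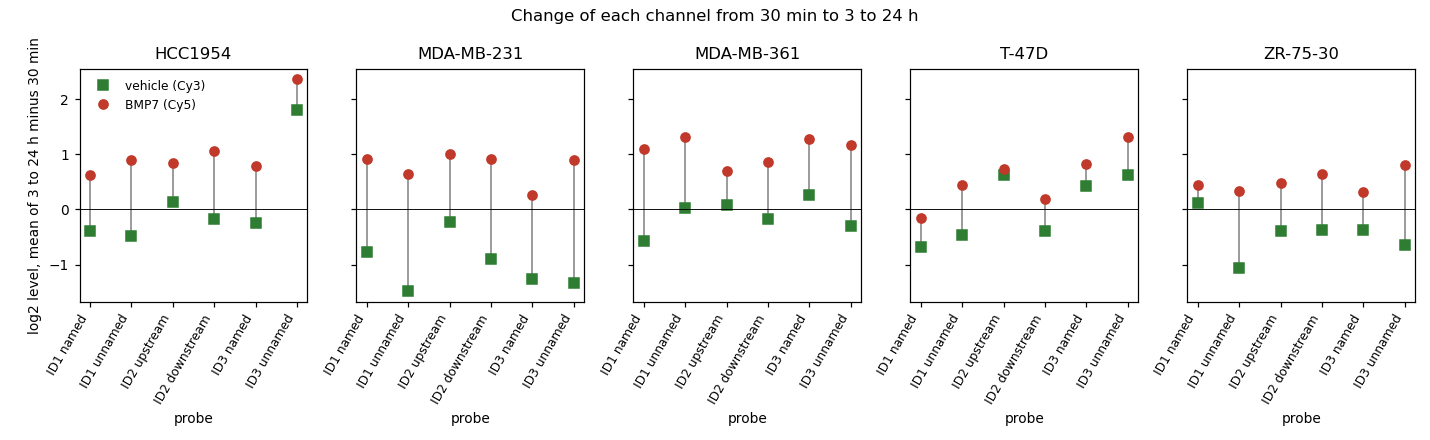
Change in log2 level from 30 min to the mean of 3 to 24 h in the vehicle channel (squares) and the BMP7 channel (circles) for the 6 ID1, ID2 and ID3 probes, 1 panel per cell line. In MDA-MB-231 all 6 squares lie below 0 and all 6 circles above it; the vertical distance between a square and its circle is the change of the ratio up to the scaling of the channels.

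A ratio can grow because the treated level goes up or because the vehicle level goes down, and both channels were read separately. In MDA-MB-231 the vehicle levels of all 6 ID1, ID2 and ID3 probes were lower at 3 to 24 h than at 30 min, with a median of -1.08, and their BMP7 levels were higher, with a median of 0.90. The named ID3 probe in this line had a vehicle level of 9.78 at 30 min and 7.88 at 24 h, and a BMP7 level of 9.88 and 10.23 at these times, so most of its ratio of 2.35 at 24 h went with the lower vehicle level. For the named ID1 probe the vehicle level was 12.90 and 11.88, and the BMP7 level 12.99 and 14.50, so here the treated side moved more. In ZR-75-30 the vehicle level was lower for 5 of 6 probes, with a median of -0.38, and the BMP7 level higher for 6 of 6, with a median of 0.46. In MDA-MB-361 and HCC1954 the treated side changed more, with medians of 1.13 and 0.87 in the BMP7 channel against -0.07 and -0.21 in the vehicle channel. In T-47D the vehicle level was lower for 3 of 6 probes, with a median of 0.02, and the BMP7 level higher for 5 of 6, with a median of 0.59. The named ID1 probe was the one whose BMP7 level was lower in this line, with a change of -0.15, and its vehicle level had one of -0.67. Its BMP7 change was 0.21 with scaling to the 75th percentile of each array and -0.31 with normexp background correction. The direction of this change thus depends on the scaling. Scaled to the 75th percentile of each array instead, the medians in MDA-MB-231 were -1.10 and 0.88, and with normexp background correction -0.51 and 0.65.

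Over the 5 lines, neither channel on its own passed the test. The change at 3 to 24 h was between -0.69 and 0.18 in the vehicle channel and between 0.52 and 1.31 in the BMP7 channel, with adjusted p of at least 0.204 in limma. None of the 7 probes was called in either, against 0.00244% of all probes in the vehicle channel and 0.00976% in the BMP7 channel (limma, at an unadjusted p under 0.05 2 and 7 of the 7, and of all 41000 probes 4006 and 4156). The standard errors were 0.17 to 0.41 in the single channels and 0.14 to 0.23 in the ratio. Within a line each time point is 1 array, so a change over time and a difference between arrays cannot be told apart.

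**Figure D5:**
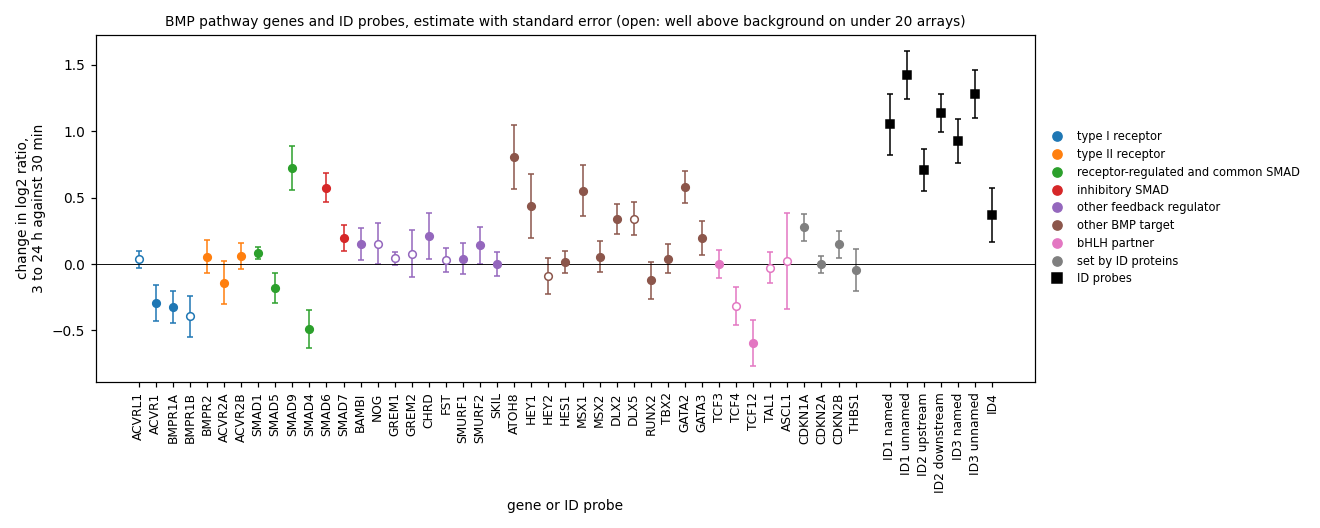
Change in log2 ratio from 30 min to 3 to 24 h (vertical axis) with its standard error for 43 genes of the BMP pathway and ID partners by role, and for the 7 ID probes (black squares); open circles are probes well above background on fewer than 20 arrays. Of the 43 genes ATOH8 has the largest estimate, 0.80, below all ID1, ID2 and ID3 probes but the upstream ID2 probe.

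Of 43 other genes of the pathway, 0 rose and 0 fell past the threshold at 3 to 24 h against 30 min (limma, 8 up and 6 down at an unadjusted p under 0.05, against 3768 up and 3453 down, or 17.6%, of all 41000 probes). Their median change was 0.04, against 0.00 over all 41000 probes. The following were picked after their values were seen, and none passed. SMAD6, an inhibitory SMAD that BMP signaling induces as feedback, had 0.57 (limma, standard error 0.11, adjusted p = 0.0584), while SMAD7, the other inhibitory SMAD, had 0.20. SMAD9, a receptor-regulated SMAD, had 0.72 (limma, adjusted p = 0.0796) and SMAD4, the common partner, -0.49 (limma, adjusted p = 0.106). ATOH8, a helix-loop-helix factor and BMP target, had 0.80 (limma, adjusted p = 0.11), and GATA2 had 0.58 (limma, adjusted p = 0.0608). Of the homeobox targets MSX1 had 0.55, MSX2 0.05 and DLX2 0.34, and DLX5 0.34 on a probe well above background on 1 array. BAMBI, a pseudoreceptor that dampens the pathway, had 0.15.

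The type I receptors ACVR1 and BMPR1A had changes of -0.30 and -0.32, and the type II receptor BMPR2 of 0.05. Among the partners that ID proteins bind, TCF12 had -0.60 (limma, adjusted p = 0.106), TCF4 -0.32 on a probe well above background on 15 arrays, and TCF3 0.00. Of genes whose level ID proteins are known to affect, CDKN1A had 0.27 and THBS1 -0.05, and CDKN2A 0.00. Between the lines, 5 of the 43 genes differed at 3 to 24 h, against 5.37% of all probes. They were SMAD9, SMAD6, GATA2, MSX1 and DLX5, so the changes given above for these genes are means over unlike lines. The mean ratio of MSX1 was 0.97 in ZR-75-30 and -0.31 in HCC1954. SMAD9 had 1.27 in MDA-MB-361 and 0.14 in HCC1954, SMAD6 1.21 and 0.28, and GATA2 0.66 and -0.04 in these lines.

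Among the genes whose ratio ran most like that of the ID genes over the 30 arrays, only ATOH8 and SYT15 were shared by ID1, ID2 and ID3. Over 17845 named probes well above background on at least 20 arrays, ATOH8 correlated best with the named ID1 (r = 0.78), the upstream ID2 (r = 0.883) and the named ID3 probe (r = 0.839), and SYT15 came next with each (r = 0.751, 0.793 and 0.818). LYPD6B, SLC67A1 and CHID1 followed for ID1, CDCA3, MRPS16 and ANAPC15 for ID2 and CDCA3, HSD11B1L and VKORC1 for ID3. For ID4 the closest was RHOU (r = 0.603), followed by DLX2 (r = 0.57), HLA-DQB1, DLX1 and HDDC3. Among the ID probes themselves, the named ID1, upstream ID2 and named ID3 probes correlated at r = 0.814 (ID1 and ID2), 0.917 (ID1 and ID3) and 0.926 (ID2 and ID3), and each with ID4 at r = 0.353 to 0.444. These are descriptions over arrays that share lines, times and slides, and the ID4 values of MDA-MB-231 are among them.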

How the data were processed

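BMP7-treated and vehicle-treated cells of 5 lines at 6 time points were compared on 30 two-colour Agilent arrays. The deposited log10 ratios of Cy5 over Cy3 were made by the authors with the Feature Extraction software (version 9.5.1.1 per the file headers), after background correction and dye normalization. The deposited intensities of both channels, and the deposited p-value of each ratio, come from the same software. A series matrix of log2 ratios, deposited as well, was used as an alternative.

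Ratios were changed to log2, without control spots or those the software marked as outliers, averaged per probe and shifted to a median of 0 on each array. Levels were log2 processed signals, quantile scaled between arrays. A probe was well above background where the software marked it so. Names of 26713 of 41000 probes were matched to the RefSeq gene table, and 5 of the 7 ID probes carry a symbol.

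Tests across all probes were made in limma 3.58.1 (R 4.3.3) with time point and cell line as terms (30 arrays), with cell line and time over 3 to 24 h (20 arrays), and against 0 at 30 min (5 arrays), adjusted after Benjamini-Hochberg with 0.05 as the threshold, and the fits were tested on simulated data. The lines served as the replicates of a time point. The members and gene lists were chosen with earlier results of these data known. All ID probes are named. The 43 pathway genes were read from the probe well above background on most arrays, with up to 8 past the threshold to be named, and for each ID gene the 5 genes with the closest ratios. Marker genes were read from their brightest probe. Promoters were searched with Python 3.11.15 and figures drawn with matplotlib 3.10.9. Alternatives were normexp background correction (offset 50) with loess or median scaling, the matrix values, both channels well above background, outlier-marked spots kept, leaving out each line, slide or cell line as a random block, and 75th percentile scaling of levels. Scan batch as a term or alone, fits without certain arrays, 1 value per line and pooled time points were also tried.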

Additional observations from a re-analysis of the deposited data

Results flagged for a closer look

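The log2 ratio at 3 to 24 h differed between the cell lines for 6 of 7 ID probes by the F test over 20 arrays. The highest and the lowest line were 1.31 apart for the unnamed ID1 probe, 1.34 for the upstream ID2 probe, 1.17 for the downstream ID2 probe, 1.35 for the named ID3 probe, 2.33 for the unnamed ID3 probe and 0.78 for the ID4 probe (limma, adjusted p = 0.0365, 0.0333, 0.025, 0.0336, 0.000353 and 0.0226). MDA-MB-231 was highest and T-47D lowest for the first 5 of these, and MDA-MB-361 highest and T-47D lowest for ID4. For the unnamed ID3 probe the vehicle spot was not well above background in MDA-MB-231 on 3 of these 4 arrays, and the difference was 1.97 on spots well above background in both channels. The ID4 probe was not well above background on any array of MDA-MB-231, whose ratios are part of its test. Of all probes, 5.37% passed the F test.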

How the results depend on the processing

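The number of ID probes past the threshold moved with most settings, and the cause was not tested. Against 30 min, the counts in the order 3, 6, 12, 24 and 3 to 24 h were 1, 0, 2, 2 and 3. Normexp followed by loess gave 0, 0, 1, 1 and 3, median scaling in place of loess gave 1, 0, 1, 1 and 1, the deposited matrix gave 1, 1, 5, 2 and 4, and spots well above background in both channels gave 3, 3, 5, 3 and 6. A further scan batch term gave 0, 1, 0, 0 and 0, a random block for cell line 0, 0, 0, 0 and 2, and one for the slide 1, 0, 2, 2 and 3. Chosen after seeing the data, the first scan batch alone gave 0 at each time, the fit without the 3 arrays that stood apart 1, 2, 5, 1 and 6, that without HCC1954 at 1 h 1, 0, 2, 1 and 4, 1 value per line 0 at 3 to 24 h, and time points pooled with 1 h left out 5. Leaving out each line in turn gave 0 to 1 at 3 h, 0 to 1 at 6 h, 0 to 4 at 12 h, 0 to 1 at 24 h, 0 to 5 at 3 to 24 h and 1 to 5 for the difference between lines, which was 6 with all lines. The 3 to 24 h change of ID4 turned to -0.24 with normexp and median scaling, and no other ID probe changed direction in that comparison. At 3 to 24 h, all probes past the threshold were 7 up and 0 down, but 31 up and 28 down where both channels had to be well above background. The counts at 1 h and 30 min, for 12 and 24 h against 3 and 6 h and for single channels were 0 in all settings run. The count for the difference between lines was 5 to 6 in the settings with all lines, and that for vehicle levels 6 to 7. Dim values limit ID4 in MDA-MB-231 and the unnamed ID3 probe in HCC1954 and MDA-MB-231. Each ratio pairs the treated and vehicle cells of a line at a time point. The cell line term of the fits, and the fit with 1 value per line, pair the times within a line. Each line and time point has a single array, so no further pairing was possible.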

Other observations

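On the array of MDA-MB-231 at 6 h, which stood apart from its line, the named and unnamed ID1 probes read 0.54 and 1.81, and the named and unnamed ID3 probes 0.84 and 2.06. The vehicle spots of both unnamed probes were not well above background there.

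The unnamed probes read below 0 at a scanner software p under 0.01 on 2 arrays for ID1 (HCC1954 at 30 min and 1 h) and on 3 for ID3 (T-47D at 30 min and 1 h, and ZR-75-30 at 30 min), while the named probes of these genes had 0 such arrays. ID4 read -0.66 in MDA-MB-361 at 30 min, also at a p under 0.01.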
